A study of Mus musculus with 6 samples.

Results

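Accessible promoters that carry a listed match to an E2f motif were compared between mouse nephron progenitors of the embryo and of the newborn. Of 43523 distinct regions of open chromatin in the deposited table, 14097 were annotated there as promoters, and 4740 of these promoters had at least 1 motif match under a name beginning with E2f. They are called E2f-match promoters here, and the 9357 promoters without such a name are called other promoters. The match is read from the DNA sequence alone, so it says nothing of whether an E2F protein was bound.

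Nephron progenitors are the cells of the outer kidney that renew themselves and form nephron epithelium. They were taken from CD1 embryos at the stage E14.5 and from CD1 pups at P0 (the day of birth), with 3 libraries per stage. No allele or drug is named for either stage. Each library holds the progenitors of 1 litter, from a pool of at most 24 kidneys enriched with Itga8 antibodies on magnetic beads, and 50000 cells entered the ATAC-seq reaction, in which the Tn5 transposase cuts open chromatin. In such bulk samples, a promoter that is open in fewer cells and one that is less open in each cell cannot be told apart.

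E2F factors bind DNA mostly as dimers with a Dp partner and control the genes that a cell needs to copy its DNA. E2F1, E2F2 and E2F3 are known as activators, E2F4 and E2F5 work mainly as repressors with the pocket proteins of the retinoblastoma family, and E2F7 and E2F8 repress without Dp or pocket proteins. E2F6 represses as part of a Polycomb complex. Their sites usually lie close to the start of transcription.

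The letters inside the listed matches set limits on the label. Matches could be read where they fell into a RefSeq promoter window of build GRCm38.p6, which runs from 250 bases before to 50 bases after a transcript start, and 6429 of the 13890 matches did. The following stretches were chosen, after their letters had been seen, to show the kinds of match that were found. Each is written in the direction of its gene, stops before the RefSeq start, and has in capitals the searched letters inside listed matches. In the first group the capitals are E2F core letters: TTTNNCGC or its other strand GCGNNAAA, or GCGGGAA or its other strand TTCCCGC.

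Mcm6 (chr1:128359776-128359846, minus strand): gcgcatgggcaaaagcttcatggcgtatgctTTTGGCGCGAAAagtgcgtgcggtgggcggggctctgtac

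Orc1 (chr4:108579395-108579453, plus strand): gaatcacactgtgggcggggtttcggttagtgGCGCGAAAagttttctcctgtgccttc

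Cdk1 (chr10:69353004-69353074, minus strand): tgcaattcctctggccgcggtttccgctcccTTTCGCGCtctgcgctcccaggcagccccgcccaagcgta

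Hells (chr19:38930896-38930966, plus strand): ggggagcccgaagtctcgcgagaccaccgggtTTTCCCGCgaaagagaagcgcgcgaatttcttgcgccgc

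Uhrf1 (chr17:56303256-56303328, plus strand): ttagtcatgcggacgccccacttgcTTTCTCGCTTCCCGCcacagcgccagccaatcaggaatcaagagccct

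In the second group the capitals are the letters GGGCGGG or their other strand CCCGCCC. These are the letters of a GC box, which is best known as a site for Sp and Klf factors.

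E2f7 (chr10:110745329-110745403, plus strand): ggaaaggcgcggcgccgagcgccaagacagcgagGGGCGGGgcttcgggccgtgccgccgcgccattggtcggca

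Dck (chr5:88764961-88765012, plus strand): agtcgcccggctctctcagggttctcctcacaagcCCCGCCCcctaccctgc

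Msh6 (chr17:87974908-87974980, plus strand): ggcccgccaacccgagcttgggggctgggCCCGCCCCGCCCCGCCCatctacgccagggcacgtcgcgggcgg

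Rab3gap2 (chr1:185204093-185204167, plus strand): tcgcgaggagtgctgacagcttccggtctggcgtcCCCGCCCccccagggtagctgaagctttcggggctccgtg

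The matches shown for Mcm6, Orc1, Cdk1 and Hells are listed under E2f5 and the one for Uhrf1 under E2f6. At Uhrf1 the letters TTCCCGC lie inside the E2f6 match, while TTTCTCGC lies inside another listed E2f match. The Uhrf1 promoter lists all 7 E2f names of the table. The matches of E2f7, Dck and Rab3gap2 are listed under E2f4 and that of Msh6 under E2f1. Of the 164 promoters with an E2f5 match, the table lists overlapping E2f5 matches on both strands in 3: Mcm6, Gins1 and Rpa2. This count uses the listed positions and strands, not the letters. The stretches of Mcm6, Orc1 and Cdk1 each hold 1 copy of the GC-box letters as well, in lower case because it lies outside the listed match. The stretch of Msh6 holds 3 overlapping copies. All lie inside listed E2f matches of its promoter, but not all inside the E2f1 match named here.

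Most readable matches had the letters of the second group. GGGCGGG was found on either strand in 65.3% of the 6429 readable matches, GCGGGAA in 9.41% and TTTNNCGC in 3.81%. A match could hold more than 1 of these, since GGGCGGG and GCGGGAA can overlap. By promoter, 2386 members had a readable match, and 228 of them (9.56%) had GCGGGAA or TTTNNCGC in one. GC-box letters with neither E2F core form were found in 1377 promoters (57.7%), and none of the 3 forms in 781 (32.7%).

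The names differed in their letters. GGGCGGG was in 84.1% of E2f1 matches, 73.0% of E2f4 matches and 64.0% of E2f7 matches. TTTNNCGC was in 98.7% of the 78 readable E2f5 matches, against 1.39% of E2f1 matches and 8.70% of E2f2 matches. Of the E2f2 matches, 88.0% had none of the 3 forms. E2f5 was the name with the textbook E2F form, while E2f1, E2f4 and E2f7 matches had mostly GC-box letters.

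**Figure D1:**
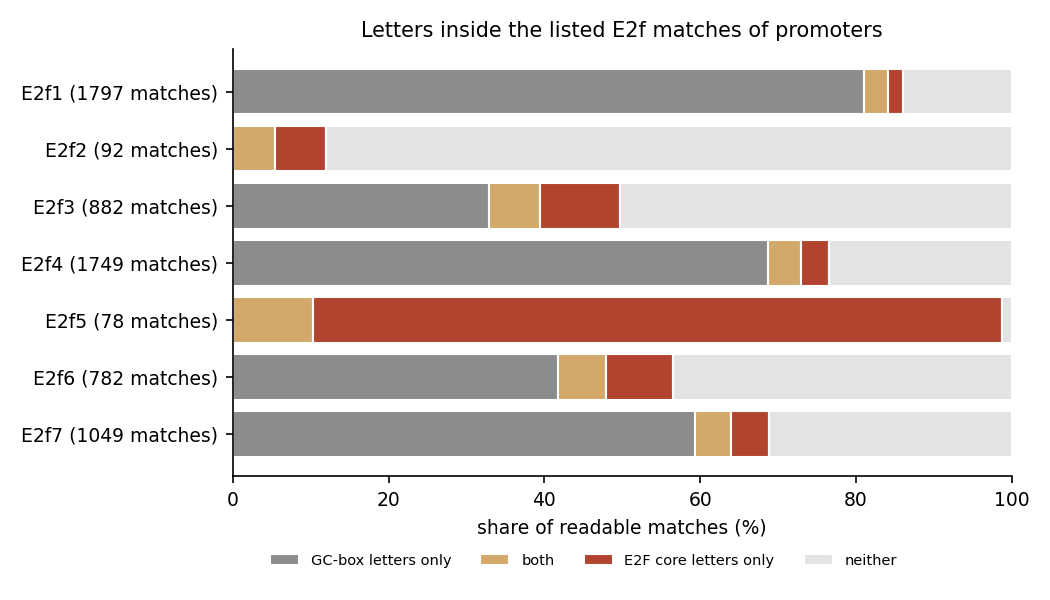
Share of readable matches (x axis, %) by listed E2f name (y axis, with the number of matches), divided into matches with GC-box letters only, with E2F core letters only, with both, and with neither. E2f1, E2f4 and E2f7 matches held mostly GC-box letters, and 98.7% of E2f5 matches held an E2F core form.

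The names also overlapped. E2f1 was listed in 2844 members, E2f4 in 2717, E2f7 in 1963, E2f3 in 1835, E2f6 in 1734, E2f2 in 205 and E2f5 in 164. Only 1511 members (31.9%) had a single E2f name, and 674 had E2f1 with E2f4 alone. When matches that overlap were merged, the 13890 matches formed 6335 sites, and 3530 members had 1 site. Several names thus often stood on 1 stretch of DNA. No listed match scored below 12, which is the lowest score in the table's E2f matches.

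Other features went along with an E2f match. The choice of members did not use them directly, but most readable matches hold GC-rich letters. Features such as GC content are thus not independent of that choice. The name Maz, a zinc finger factor that binds G-rich DNA, was listed in 69.1% of E2f-match promoters and in 22.4% of other promoters. Sall1, a zinc finger factor of the nephron progenitor, was listed in 33.6% and 12.8%, and Sall4 in 26.1% and 11.8%. Over RefSeq windows inside the regions, the median GC content was 65.0% in E2f-match promoters, 60.7% in other promoters and 52.7% in all 32815 RefSeq windows. The median number of CpG dinucleotides per window of 300 bases was 25, 20 and 7 in the same order.

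The searched letters were counted in the same windows. Since members were chosen by their matches, which often hold these letters, their shares in members partly restate that choice. GGGCGGG was in 65.3% of 4800 windows of E2f-match promoters, 40.7% of 7613 windows of other promoters and 25.5% of all RefSeq windows. GCGGGAA was in 11.7%, 7.09% and 4.60%. TTTNNCGC was in 10.2%, 8.45% and 5.16%. The E2F core forms were thus also in some windows without a listed E2f match. E2f-match promoters were also longer, with a median of 1974 bases against 1742, and had more counts, with a median of 28.6 against 23.9 CPM (counts scaled to the depth of the library).

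The matches lay near the start of transcription. For the 3602 members with a RefSeq start inside the region, the median distance from a match to the nearest start was 104 bases, and 75.4% of 10507 matches lay within 250 bases of it. The median position was 28 bases before the start for all names and 8 bases before it for E2f5. The share within 250 bases ran from 69.8% for E2f6 to 78.2% for E2f1.

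Depth was 6492996 to 12292629 counts in regions per library, and the lowest count of any E2f-match promoter in any library was 16. The library of P0 replicate 2 was the shallowest and stood apart from the other P0 libraries. The median log2 CPM of E2f-match promoters was 4.95, 4.82 and 4.93 in the 3 libraries at E14.5, and 4.75, 4.59 and 4.96 at P0. Over E2f-match promoters, which are not independent points, log2 CPM of pairs of libraries correlated at 0.878 to 0.959 (Pearson), with the lowest value between P0 replicate 2 and E14.5 replicate 1. Of the nephron progenitor markers, 8 of 11 had a promoter region, with sums of 232 to 238 CPM at E14.5 and 200 to 260 CPM at P0. The stroma had 3 of 6 (72.1 to 84.0 and 67.5 to 81.3 CPM), the ureteric epithelium 5 of 6 (137 to 164 and 115 to 146 CPM), the endothelium 1 of 4 (19.8 to 29.6 and 22.7 to 31.2 CPM) and immune cells 0 of 4. Markers of the differentiating nephron had a promoter region for 2 of 5, with 122, 119 and 109 CPM at E14.5 and 145, 109 and 143 CPM at P0, so that P0 replicates 1 and 3 lay above every E14.5 library. The ranges of the stages overlapped for each list with a region, no marker promoter passed the threshold, and the part of other cell types in the results was not tested.

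Few E2f-match promoters passed the test of a difference between the stages. Of 4740, 4 passed an adjusted p of 0.05 (edgeR's quasi-likelihood F test with Benjamini-Hochberg adjustment over all regions), which is 0.0844%. In the same fit, 4.73% of all regions, 0.851% of all promoters and 1.24% of other promoters passed. At an unadjusted p of 0.05, 303 E2f-match promoters passed (6.39%), against 9.92% of other promoters and 18.7% of all regions. Of the 4 called promoters 1 was higher and 3 were lower at P0, where the same call was made for 1.79% of all regions as higher and 2.94% as lower. With total-count scaling 1 promoter was called, Sgms1, which was higher at P0. With TMM scaling set on promoters it was again 1, Bnc2, also higher at P0, named here after the values were seen.

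The count of calls rested on single libraries, while most intervals lay within 2-fold. It was 0 without E14.5 replicate 3 or P0 replicate 1, and 1 without E14.5 replicate 1. It was 21 without E14.5 replicate 2, 9 without P0 replicate 2 and 30 without P0 replicate 3. Over all 43523 regions these fits called, in the same order, 339, 474, 1099, 2987, 1653 and 2245, beside 2059 with all libraries. Of other promoters they called 0.128%, 0.171%, 0.46%, 1.85%, 0.983% and 1.77%. DESeq2 called 26 (0.549%), against 2.09% of other promoters and 6.38% of all regions, and limma-voom called 5 (0.105%), against 1.07% of other promoters and 4.38% of all regions. The 95% interval of the fold change lay within 2-fold in either direction for 95.4% of E2f-match promoters, 89.9% of other promoters and 72.1% of all regions. The fold change itself reached 2-fold for 1 E2f-match promoter, 74 other promoters and 1704 regions outside promoters.

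The typical E2f-match promoter was slightly less accessible at P0 under TMM scaling. The median log2 fold change, P0 over E14.5, was -0.12 with quartiles of -0.27 and 0.03, beside -0.09 in other promoters and 0.01 in all regions. It was -0.04 without P0 replicate 2, -0.25 without P0 replicate 3 and -0.02 with TMM scaling set on promoters. Values lay below 0 for 70.5% of E2f-match promoters and 63.7% of other promoters. This share was 54.2% and 48.2% with TMM scaling set on promoters, which moved the median of all regions up by 0.11, and 55.7% and 54.3% without P0 replicate 2. Without P0 replicate 3 it was 82.9% and 72.1%. The median log2 CPM of the libraries averaged 4.90 (SD 0.0687, n = 3) at E14.5 and 4.77 (SD 0.183, n = 3) at P0, a difference of -0.13, and the stages overlapped.

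**Figure D2:**
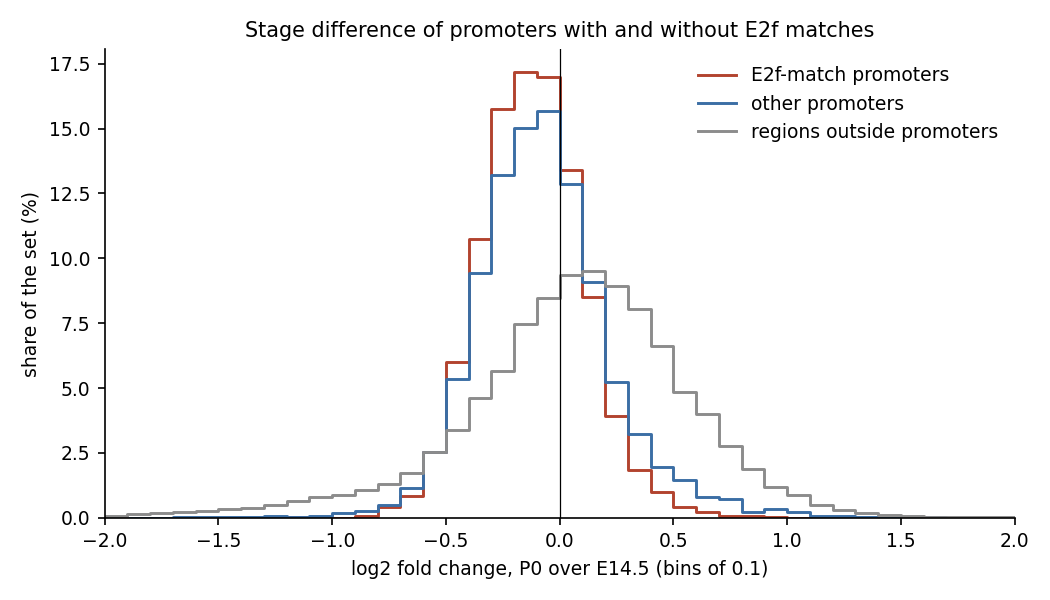
Distribution of the log2 fold change, P0 over E14.5 (x axis, in bins of 0.1), as the share of each set (y axis, %), for E2f-match promoters, other promoters and regions outside promoters. The E2f-match promoters form the narrowest curve, with a median of -0.12, and regions outside promoters the widest.

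In 676 E2f-match promoters (14.3%) the 3 libraries of one stage all lay above those of the other, 133 of them higher and 543 lower at P0. The same was found in 18.0% of other promoters, 520 higher and 1165 lower, and in 24.2% of all regions, 5147 higher and 5401 lower.

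Promoters of like accessibility were then set side by side, in 10 classes cut at the deciles of mean CPM of the E2f-match promoters. In the lowest class, 0.422% of 474 E2f-match promoters and 2.73% of 2126 other promoters passed the threshold. The E2f-match promoters of this class start at 3.75 CPM and the other promoters at 2.185 CPM, so its lower end was not matched. In the highest class, above 65.1 CPM, these shares were 0% and 0.134%. The called share was below that of other promoters in 9 of 10 classes. In the other class, from 28.6 to 33.4 CPM, 1 E2f-match promoter was called and 0 of 796 other promoters. Other promoters weighted to these classes had a called share of 0.924%.

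The difference in median within classes was small. Weighted over the classes, the median log2 fold change of E2f-match promoters was 0.02 below that of other promoters (-0.02), and it was the lower one in 8 of 10 classes. The weighted difference was -0.01 without P0 replicate 2 or E14.5 replicate 1, and -0.05 without P0 replicate 3. The largest gap was 0.07, in the lowest class, whose lower end was not matched. There, 85.0% of E2f-match promoters and 74.3% of other promoters had an interval within 2-fold, while in the highest class 96.6% and 97.2% did. In 5 classes of region length, other promoters had the higher called share in each class, from 2.27% against 0.106% in the shortest to 0.920% against 0% in the longest.

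**Figure D3:**
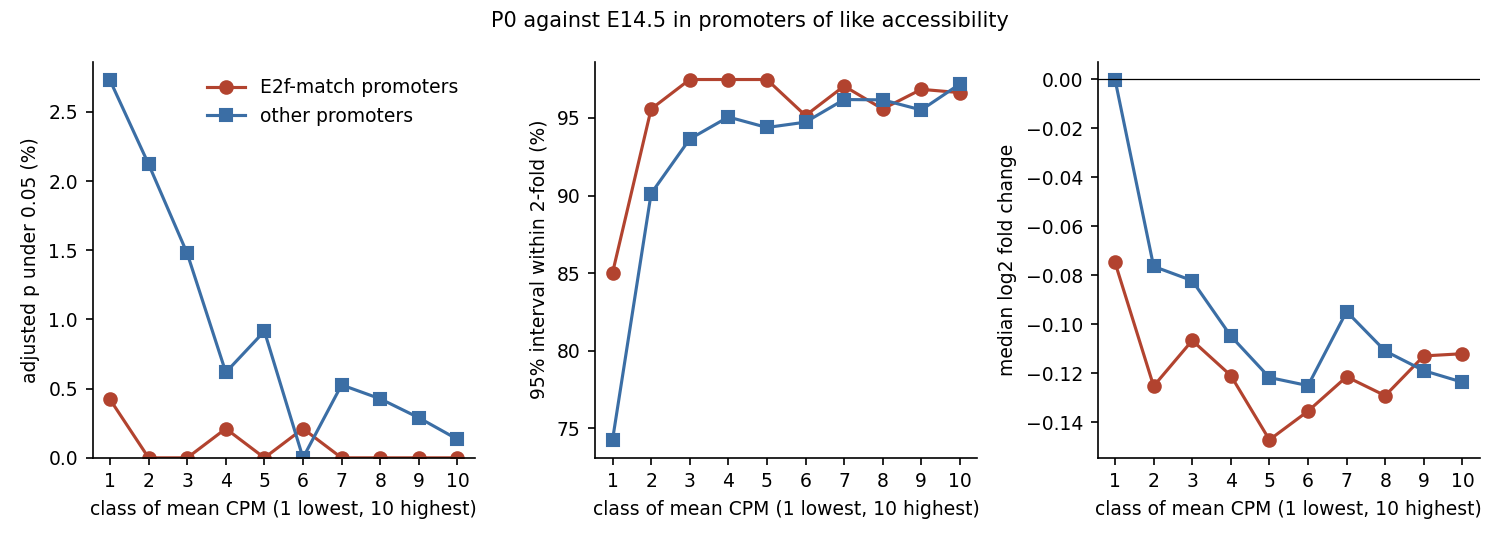
Share past an adjusted p of 0.05 (left, %), share with a 95% interval within 2-fold (middle, %, axis not starting at 0) and median log2 fold change (right) in 10 classes of mean CPM (x axis), for E2f-match promoters (circles) and other promoters (squares). The curves lie farthest apart in the lowest class, where 0.422% and 2.73% were called.

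Called shares also varied with other listed motifs and with location. Other promoters that list Maz, the G-rich motif shared by most members, had 0.762% of 2100 called, those with no listed motif 1.25% and those with other motifs 1.56%. The 1860 regions with an E2f name outside promoters had 4.19% called, beside 6.75% of regions there without the name. Their median log2 fold change was 0.07, beside 0.10 in regions there without the name.

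Within the members, medians were alike across names. They ran from -0.11 for E2f6 and E2f3 through -0.12 for E2f5 and E2f7 and -0.13 for E2f1 and E2f4 to -0.14 for E2f2. The promoters share names, so these values are not independent. Calls numbered 3 each among E2f3 and E2f6 promoters, 2 among E2f7, 1 each among E2f1 and E2f4, and 0 among the 205 with E2f2 and the 164 with E2f5. At an unadjusted p of 0.05, 15 E2f2 promoters (7.32%) and 9 E2f5 promoters (5.49%) passed, beside 6.39% of all E2f-match promoters and 18.7% of all regions. The 228 promoters with an E2F core form in a readable match had a median of -0.12 with 0 called and 13 at an unadjusted p of 0.05, and the 2158 with other readable letters a median of -0.14 with 1 called. The number of sites made as little difference, with medians of -0.12 for 1 site and -0.14 for 4 or more.

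By library, E2f-match promoters held 28.6%, 31.0% and 29.4% of promoter counts at E14.5 and 30.1%, 26.8% and 32.8% at P0. The stages overlapped, with means of 29.7% ± 1.25 and 29.9% ± 3.04 (SD, n = 3). The highest and the lowest share were both at P0. The 95% Wilson interval of the shallowest library, P0 replicate 2, ran from 26.7% to 26.8% and covers counting error only. Without the 10 regions with the most counts the shares were 37.8%, 36.8% and 37.2% at E14.5 and 36.7%, 35.7% and 37.8% at P0, and overlapped again.

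Of the 4 promoters past the threshold, Sgms1 was the one that rose. Sgms1 encodes a sphingomyelin synthase, and its region (chr19:32321561-32323154) overlaps the gene but holds none of the RefSeq starts used here. It had 8.54, 8.58 and 7.36 CPM at E14.5 and 15.3, 15.6 and 15.6 CPM at P0. The stages did not overlap, and the 3 P0 values were nearly equal. The log2 fold change was 0.92 with an SE of 0.22 (edgeR adjusted p = 0.0257). Its listed names are E2f3 and E2f6.

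Phactr3, which encodes a regulator of protein phosphatase 1 and actin, fell. Its region (chr2:178326477-178328848, E2f3 and E2f6) also overlaps the gene without holding such a start. It had 38.6, 40.3 and 45.9 CPM at E14.5 and 20.9, 29.7 and 22.2 CPM at P0. All P0 values lay below all E14.5 values, with a log2 fold change of -0.78 and an SE of 0.20 (edgeR adjusted p = 0.0364).

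Rab3gap2 encodes a subunit of a regulator of the membrane traffic protein Rab3, and its region (chr1:185202931-185204871) holds the RefSeq start and the GC-box match printed above. Accessibility was 26.0, 27.3 and 31.1 CPM at E14.5 and 18.1, 12.3 and 18.1 CPM at P0. The stages did not overlap, and P0 replicate 2 was lowest. The log2 fold change was -0.79 with an SE of 0.21 (edgeR adjusted p = 0.0408).

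The last called promoter is annotated to U1, a small nuclear RNA of the spliceosome with near-identical copies in the genome, so its counts are uncertain. The region (chrX:116343773-116344760, E2f7) overlaps no RefSeq gene. It had 9.37, 8.23 and 12.5 CPM at E14.5 and 3.75, 6.05 and 3.79 CPM at P0. The log2 fold change was -1.16 with an SE of 0.31 (edgeR adjusted p = 0.0416).

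Each of these calls was lost under some alternatives, and none changed direction. Sgms1 was still called in 11 of 16 other fits, with adjusted p of 0.0103 to 0.145. Phactr3 and Rab3gap2 were still called in 10 of 16 each, with adjusted p up to 0.230 and 0.209. U1 was called in 8 of 15, with adjusted p up to 0.247. Over these fits the log2 fold change ran from 0.85 to 1.03 for Sgms1, -0.95 to -0.66 for Phactr3, -0.89 to -0.64 for Rab3gap2 and -1.41 to -0.98 for U1. The losses followed mostly from leaving out 1 library, and all 4 lost their calls when E14.5 replicate 1, E14.5 replicate 3 or P0 replicate 1 was left out, and with TMM scaling set on promoters.

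Among the genes of the E2F system itself, no promoter passed the threshold. Of 13 genes for E2f, Dp and pocket proteins, all 13 had a promoter region and 7 had a listed E2f match: E2f1, E2f2, E2f7, E2f8, Tfdp1, Tfdp2 and Rbl1. The promoters of E2f3, E2f4, E2f5, E2f6, Rb1 and Rbl2 had none. Of the 7, 0 passed the threshold by edgeR, beside 0.0844% of all E2f-match promoters and 4.73% of all regions, and 1 passed an unadjusted p of 0.05, beside 6.39% and 18.7%. All 7 log2 fold changes lay below 0, as did 70.5% of all E2f-match promoters, with a median of -0.32, and 6 of 7 did with total-count scaling, with TMM scaling set on promoters, and when E14.5 replicate 3 or P0 replicate 2 was left out.

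Among the activators, the E2f1 region (chr2:154568522-154570969, E2f5 match) had 49.1, 42.6 and 48.0 CPM at E14.5 and 38.6, 30.4 and 41.0 CPM at P0. The stages did not overlap, but the difference of -0.34 (SE 0.19) did not pass (edgeR adjusted p = 0.376). E2f2 (chr4:136179973-136181715) had 21.6, 13.0 and 17.5 CPM at E14.5 and 17.5, 13.5 and 14.3 CPM at P0. Its stages overlapped, at -0.20 with an SE of 0.23.

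The regions of the repressors E2f7 and E2f8 had the highest mean CPM of the 7, not scaled to their length. E2f7 (chr10:110744813-110746230) had 59.9, 57.3 and 65.6 CPM at E14.5 and 58.3, 45.2 and 72.6 CPM at P0, with the highest and the lowest value both at P0. E2f8 (chr7:48880647-48882385, annotated to the neighbouring Gm2788) had 85.6, 75.8 and 105 CPM at E14.5 and 58.8, 52.2 and 77.2 CPM at P0. The log2 fold change of E2f8 was -0.50 with an SE of 0.22, the furthest from 0 of the 7, and the stages overlapped slightly (edgeR adjusted p = 0.230).

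The stages overlapped for both Dp partners. Tfdp1 (chr8:13337777-13339897) had 21.5, 17.3 and 19.7 CPM at E14.5 and 16.3, 9.08 and 20.3 CPM at P0. Tfdp2 (chr9:96258452-96260453) had 15.2, 19.4 and 13.1 CPM at E14.5 and a mean of 14.1 ± 0.393 CPM at P0 (SD, n = 3). Rbl1, which encodes the pocket protein p107 (chr2:157202832-157205597), had 18.3, 22.2 and 24.6 CPM at E14.5 and 15.1, 18.0 and 18.9 CPM at P0, with 1 P0 value above the lowest E14.5 value. Its log2 fold change was -0.32 with an SE of 0.20.

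**Figure D4:**
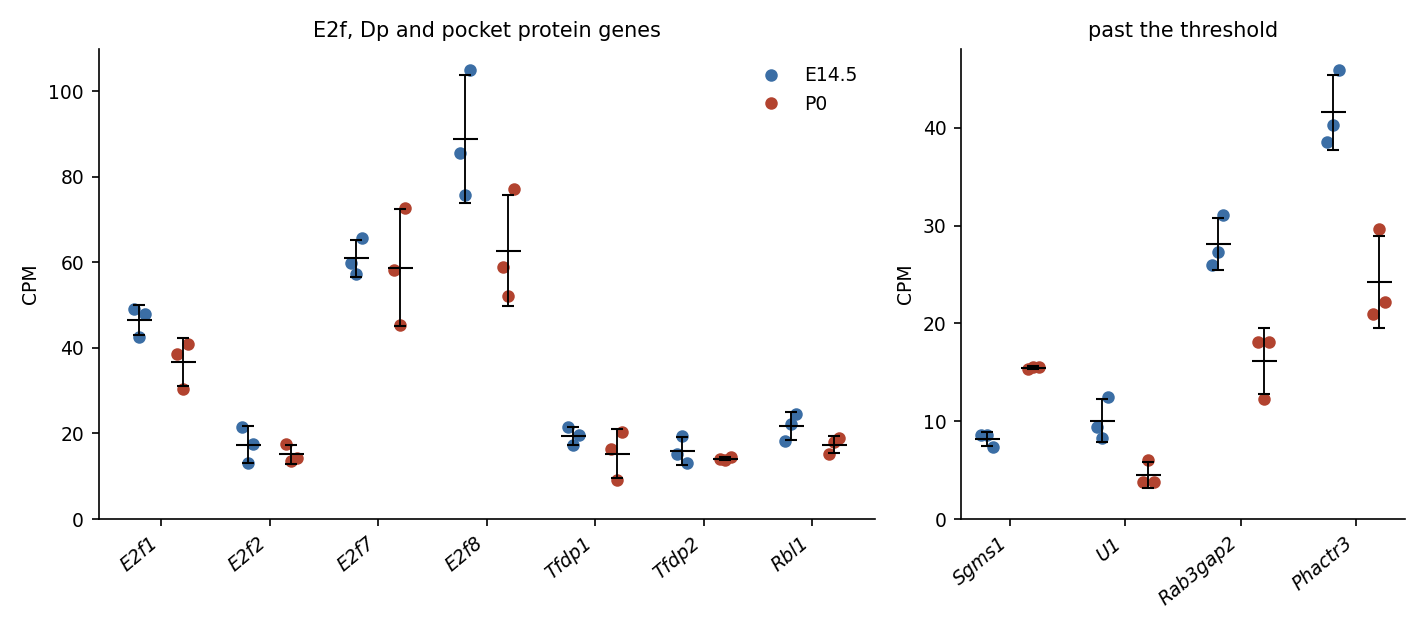
CPM (y axis, from 0, a separate scale in each panel) of each library at E14.5 (blue) and P0 (red) for the 7 E2f, Dp and pocket protein genes with an E2f-match promoter (left) and the 4 promoters past the threshold (right). Points are libraries and bars are the mean ± SD (n = 3): the stages are apart in the 4 promoters on the right and, among the 7 on the left, in E2f1.

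Genes that E2F factors are known to control were followed in 10 groups, with 134 genes in all. A promoter region was found for 124, and 71 of these (57.3%) had a listed E2f match. By edgeR, 0 of the 71 passed the threshold, beside 0.0844% of all E2f-match promoters and 4.73% of all regions. An unadjusted p of 0.05 was passed by 1 of the 71, beside 6.39% and 18.7%. DESeq2 and limma-voom called 0 of the 71 as well, as did each fit without 1 library. The 95% interval lay within 2-fold for 71 of 71. The median log2 fold change was -0.19, and 57 of 71 values lay below 0, beside 70.5% of all E2f-match promoters. With TMM scaling set on promoters the median was -0.09 and 47 lay below 0. Without P0 replicate 2 these were -0.08 and 46, and without P0 replicate 3 they were -0.32 and 66.

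In the licensing and firing of replication origins, 10 of 21 genes with a promoter region had an E2f match, 8 of them with values below 0 and 0 past the threshold. Orc4, a subunit of the origin recognition complex, shares its region with Mbd5 (chr2:48948651-48950688). It had 110, 96.8 and 99.8 CPM at E14.5 and 109, 68.9 and 104 CPM at P0, and only P0 replicate 2 lay below the E14.5 range. Cdc45, a part of the replicative helicase, shares its region with Ufd1l (chr16:18810883-18812734) and had 37.6, 39.4 and 50.4 CPM at E14.5 and 40.5, 27.8 and 39.4 CPM at P0. Mcm6, a subunit of the helicase ring, had 36.5, 38.2 and 45.4 CPM at E14.5 and 36.6, 33.3 and 37.2 CPM at P0. Orc1, which recruits the helicase to origins, had 25.6, 25.0 and 29.5 CPM at E14.5 and 20.4, 18.5 and 29.4 CPM at P0.

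The stages overlapped for the licensing factors and their inhibitor too. Cdc6 (chr11:98907501-98908407) had a mean of 13.8 ± 1.65 CPM at E14.5 and 12.8 ± 4.41 CPM at P0 (SD, n = 3). For Cdt1 (chr8:122566446-122569401) the means were 22.3 ± 3.09 and 23.7 ± 2.17 CPM. For Gmnn, which encodes geminin, the inhibitor of Cdt1 (chr13:24760556-24762362), they were 25.6 ± 2.69 and 30.0 ± 4.38 CPM, the largest value above 0 of this group at 0.24. Gins1, of the helicase complex, had the largest below 0 at -0.39 (edgeR adjusted p = 0.336).

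At the replication fork, 11 of 21 genes had an E2f match, 10 with values below 0 and 0 past the threshold. Lig1, the ligase that joins the fragments of the lagging strand (chr7:13278088-13279513), had 84.3, 103 and 117 CPM at E14.5 and 106, 75.7 and 101 CPM at P0. Pcna, the sliding clamp (chr2:132252456-132253692, annotated to AV099323), had 69.2, 50.3 and 61.2 CPM at E14.5 and 49.1, 36.6 and 68.8 CPM at P0. Neither was separated by stage. In the same group the stages did not overlap for Pold3 (-0.34, SE 0.21), a DNA polymerase subunit, and Rpa2 (-0.27, SE 0.20), which binds single strands, but neither passed the threshold.

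For nucleotide supply, 3 of 7 genes had a match, all 3 with values below 0 and 0 past the threshold. Dck, deoxycytidine kinase, had 130, 113 and 126 CPM at E14.5 and 98.3, 74.8 and 122 CPM at P0. P0 replicate 2 was lowest and P0 replicate 3 within the E14.5 range. Rrm2, a subunit of ribonucleotide reductase, had the value furthest from 0, at -0.47 with an SE of 0.23 (edgeR adjusted p = 0.288).

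Of the cyclins, Cdks and their inhibitors, 14 of 16 had a match, the second highest share of a group. Of these 11 had values below 0, from -0.37 to 0.04 over the group, and 0 passed. Ccne2, cyclin E2 (chr4:11190086-11192544), had 75.1, 61.3 and 87.1 CPM at E14.5 and 61.5, 43.4 and 83.6 CPM at P0. Cdkn2c, an inhibitor of Cdk4 and Cdk6 (chr4:109665024-109667477), had 52.3, 51.8 and 67.8 CPM at E14.5 and 45.0, 35.9 and 60.9 CPM at P0. Cdk1, the kinase of mitotic entry, had 29.9, 25.0 and 28.4 CPM at E14.5 and 28.5, 21.8 and 34.7 CPM at P0, and its interval ran from -0.40 to 0.48.

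The DREAM and MuvB complexes repress cell cycle genes in resting cells and activate them later with Mybl2 and Foxm1. Here 5 of 7 genes had a match, with values of -0.31 to 0.23, 4 of them below 0 (2 with TMM scaling set on promoters), and 0 called. Lin52 (chr12:84450094-84451946) had 68.3, 49.9 and 58.2 CPM at E14.5 and 48.6, 38.4 and 57.2 CPM at P0. Mybl2 (chr2:163054041-163055666) had 44.8, 41.4 and 36.8 CPM at E14.5 and 30.1, 28.8 and 40.0 CPM at P0. The stages overlapped in both.

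In mitosis, only 4 of 14 genes had a match, the lowest share of the 10 groups. Ttk, a kinase of the spindle checkpoint (chr9:83833915-83835501), had 75.8, 82.7 and 75.8 CPM at E14.5 and 75.3, 62.7 and 71.4 CPM at P0. Its stages did not overlap, by a narrow margin. Ndc80, of the kinetochore (chr17:71526334-71527604), had 46.3, 39.7 and 43.7 CPM at E14.5 and 42.9, 36.0 and 53.6 CPM at P0. Values of the group ran from -0.16 to 0.10 with a median of 0.02, 3 above and 1 below 0, and 0 passed the threshold. With DESeq2 size factors 2 of the 4 lay below 0. Without E14.5 replicate 2 it was 3 of the 4, and without P0 replicate 3 all 4.

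Repair and checkpoint genes had a match in 7 of 12, all with values below 0, with 5 of 7 below it under TMM scaling set on promoters and 6 of 7 without P0 replicate 2. Exo1, an exonuclease (chr1:175880284-175881753), had 60.7, 61.5 and 52.7 CPM at E14.5 and 51.5, 49.8 and 51.9 CPM at P0. Its stages did not overlap, and the value of -0.19 (SE 0.19) did not pass. Msh6, of mismatch repair, had 46.0, 46.2 and 50.8 CPM at E14.5 and 44.6, 32.7 and 50.5 CPM at P0. Brca2 also had stages that did not overlap, at -0.40 with an SE of 0.20 (edgeR adjusted p = 0.303).

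Chromatin genes had a match in 6 of 9, with values of -0.48 to 0.14, 4 of them below 0 (1 with TMM scaling set on promoters) and 0 past the threshold. Suz12, a Polycomb subunit, had the value furthest from 0, at -0.48 with an SE of 0.23 (edgeR adjusted p = 0.288). Smc2, of condensin (chr4:52438417-52439862), had 70.9, 67.7 and 75.2 CPM at E14.5 and 68.5, 57.1 and 74.8 CPM at P0. Ezh2, the methyltransferase of Polycomb (chr6:47594065-47596096), had 57.3, 49.8 and 61.2 CPM at E14.5 and 64.3, 46.0 and 74.0 CPM at P0. The remodeller Hells and the DNA methylation factor Uhrf1, whose E2F core letters are printed above, had log2 fold changes of -0.01 and 0.03. Dnmt1, the maintenance DNA methyltransferase (chr9:20951489-20954035), had a narrow spread, with 25.6, 25.9 and 29.0 CPM at E14.5 and 25.7, 27.5 and 26.6 CPM at P0.

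Of the apoptosis genes 4 of 4 with a promoter region had a match. Bcl2l11, the death activator Bim (chr2:128125390-128128242), had 75.1, 63.4 and 62.4 CPM at E14.5 and 55.2, 43.4 and 67.3 CPM at P0. Apaf1, the scaffold of the apoptosome, shares its region with Ikbip (chr10:91081963-91083987) and had 52.9, 54.7 and 60.0 CPM at E14.5 and 32.1, 39.2 and 57.3 CPM at P0. The stages overlapped in both. Of the 4 values 2 lay above and 2 below 0, and 0 passed the threshold.

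**Figure D5:**
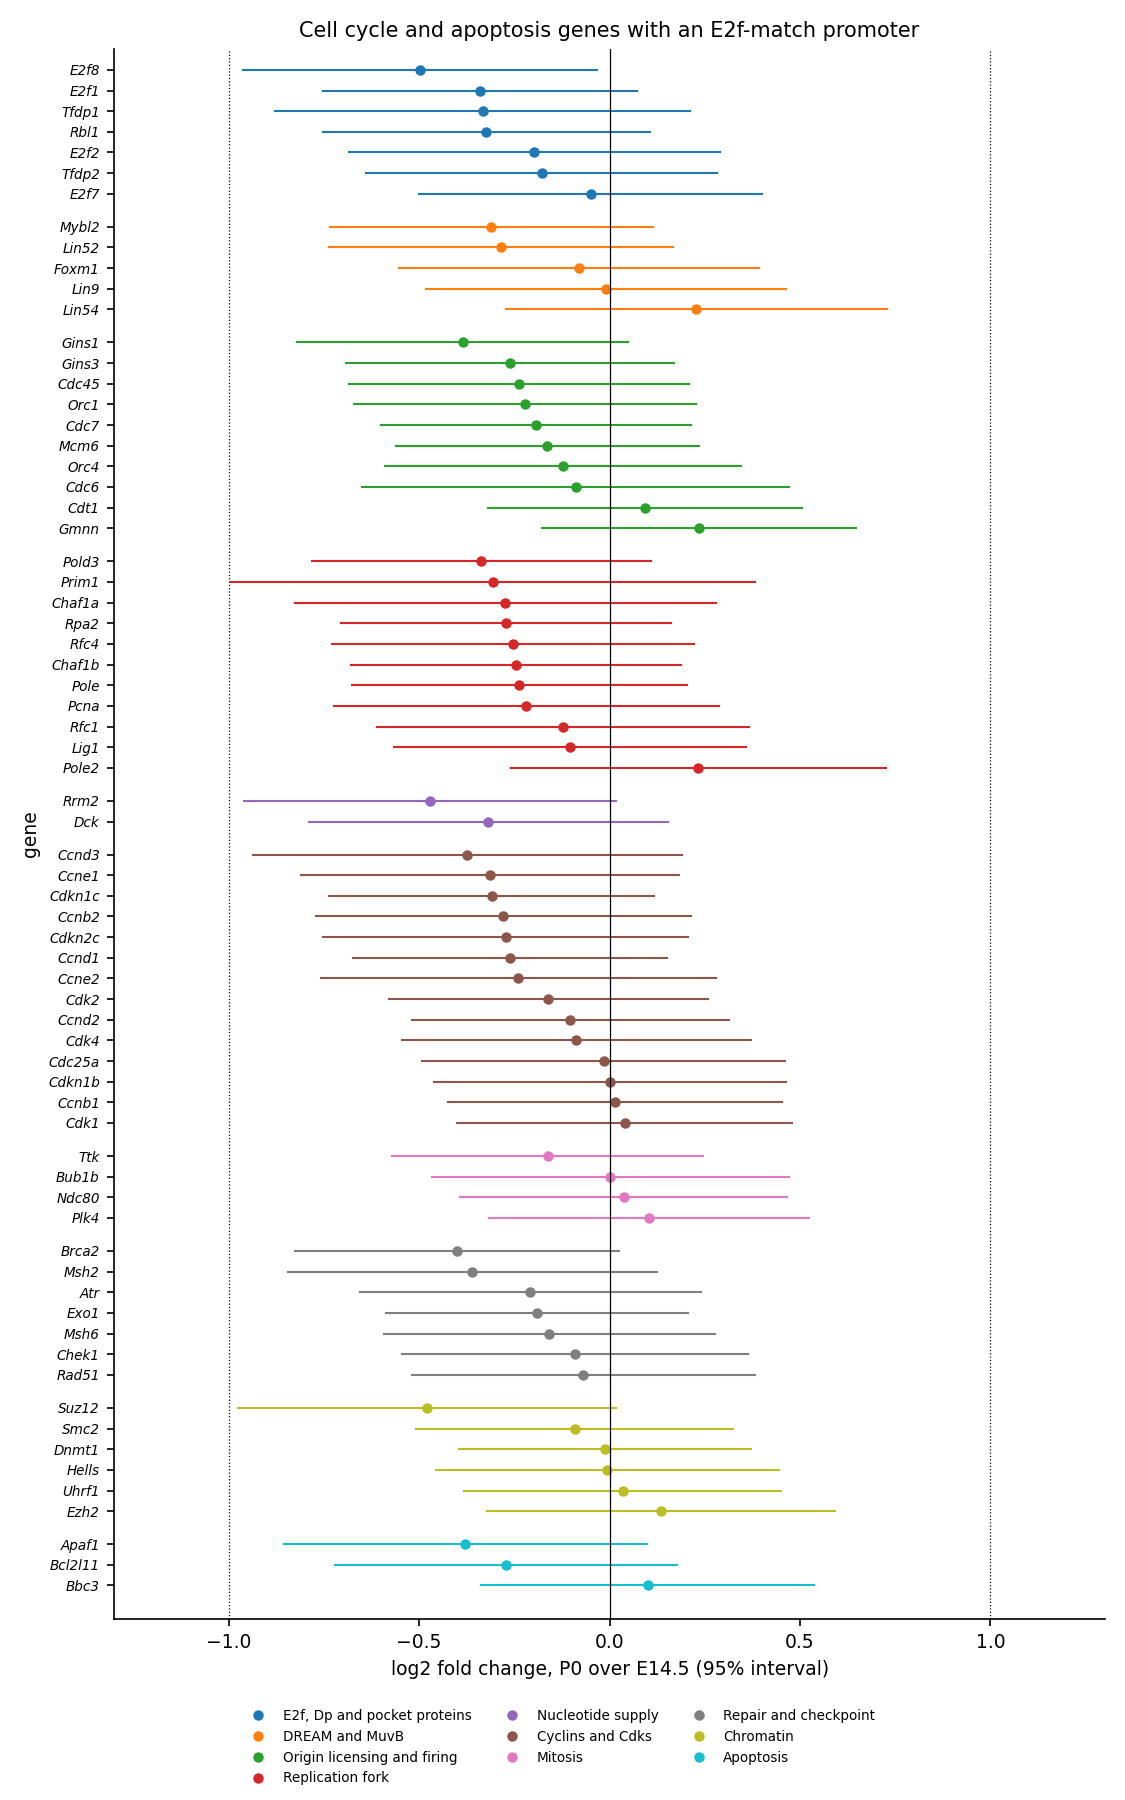
Log2 fold change, P0 over E14.5, with its 95% interval (x axis) for 69 of the 71 listed genes with an E2f-match promoter (y axis), coloured by group, with dotted lines at 2-fold. All 69 intervals lie between the dotted lines, and 56 of the points lie below 0.

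Among the 71 promoters of listed genes, the name E2f5 was frequent. It was listed in 19 (26.8%), against 145 of the other 4669 E2f-match promoters (3.11%). This was noticed in the data and is given without a test. By group, E2f5 was in 6 of 10 promoters for origins, 5 of 11 for the fork, 4 of 6 for chromatin, 2 of 7 for repair, 1 of 14 for cyclins and Cdks, 1 of 7 for the E2F family and 0 in the other 4 groups. In 10 of these 19, E2f5 was the only E2f name: Mcm6, Orc1, Cdc6, Cdt1, Gmnn, Gins1, Pole, Cdk1, Dnmt1 and E2f1. Their log2 fold changes ran from -0.39 for Gins1 to 0.24 for Gmnn.

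The 3 E2f-match promoters with the highest mean CPM belonged to none of these groups. The region with the most counts (chr17:39842753-39848812) overlaps the RefSeq ribosomal RNA pseudogene Rn18s-rs5 and AY036118, sequences with near-identical copies, so its counts are uncertain. It had 5846, 2972 and 5129 CPM at E14.5 and 5125, 5170 and 3642 CPM at P0. The region with the starts of Serpini1, a neuronal serine protease inhibitor, and Pdcd10 (chr3:75556281-75557750) had 273, 263 and 281 CPM at E14.5 and 288, 237 and 280 CPM at P0. The region at Rap2b, a small GTPase (chr3:61363002-61365851), had 224, 224 and 234 CPM at E14.5 and 254, 188 and 245 CPM at P0. None was separated by stage.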

How the data were processed

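ATAC-seq libraries of CD1 nephron progenitors from 2 stages, 3 of each, were compared. Stage and replicate number were read from the source names. The authors deposited 1 table of 45489 rows with a whole-number count per region and library, per the file headers. Its build is mm10, per the submitters' processing notes. The aligner, peak caller, motif set, promoter window, treatment of duplicates and any shift for Tn5 are not given in the sources used here, and their effect on the counts was not assessed. The motif names, each with a match score, are the deposited annotation of the authors. The log2 fold change and adjusted p-value deposited by the authors were not used.

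After 1966 repeated rows were dropped, 43523 regions were fitted with edgeR 4.0.16 in R 4.3.3 (TMM, filterByExpr, which removed 0 regions, and its quasi-likelihood F test, stage being the single term), with Benjamini-Hochberg adjustment over all regions and a threshold of 0.05. CPM use TMM-scaled library sizes, and log2 CPM a prior count of 1. The SE is the log2 fold change over the square root of F, and 95% intervals use the t distribution with the fitted degrees of freedom. On simulated counts the fit recovered only a minority of the 2-fold changes put in, and made some false calls. Alternatives used DESeq2 1.42.0 and limma 3.58.1. Tables were made with Python 3.11.15 and pandas 2.3.3.

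Table coordinates are printed as deposited. Listed genes were matched by the table's gene name or by a RefSeq start (GRCm38.p6) inside the region, since the table gives a promoter 1 name. Of 4740 members, 3554 held a RefSeq promoter window. Letters were searched on both strands in matches extended by 1 base on each side, because the table does not say how match positions are counted. Named with values are called members with stages apart (at most 8 each way), all E2f, Dp and pocket protein members, in each other group the called members or the 2 most accessible, and the 3 most accessible members. Other named genes (Cdk1, Mcm6, Orc1, Cdc6, Cdt1, Gmnn, Gins1, Pold3, Rpa2, Rrm2, Brca2, Hells, Uhrf1, Dnmt1, Suz12), the printed stretches, the letters GGGCGGG and GCGGGAA and the look at E2f5 were chosen after values were seen. Some items that the rule names are not reported here. The members, the gene lists and the tests were chosen with earlier results of these data known.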

Additional observations from a re-analysis of the deposited data

How the results depend on the processing

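With 3 litters per stage and 6492996 to 12292629 counts per library, precision was limited, and a promoter that missed the threshold is not shown to be equal between the stages. The median SE of a log2 fold change was 0.21 in E2f-match promoters, and p-values measure the spread between these pools. The count of E2f-match promoters past the threshold was 4, and 1 with total-count scaling, 1 with TMM scaling set on promoters, 26 with the DESeq2 Wald test, 0 at a threshold of 0.01, 32 at 0.1, 1 of the promoters with E2f1, and, in settings chosen after seeing the data, 0 of those with E2f5 and 0 of those with GCGGGAA or TTTNNCGC in a readable match. Without 1 library it ran from 0 to 30, while calls over all regions ran from 339 to 2987, and the cause was not tested. In each of these fits the called share of other promoters was above that of E2f-match promoters. The median log2 fold change kept its sign, from -0.25 to -0.02, as did the difference from other promoters within classes, from -0.05 to -0.01. The P0 minus E14.5 difference in the share of promoter counts was 0.248 percentage points and ran from -1.22 to 1.82 without 1 library. Of 766 values of 48 named promoters in other fits, 734 stayed within 1 SE or kept their call, 24 lost the call, 8 moved by more than 1 SE and 0 reversed a call. Values of promoters that were not called changed sign in 46.

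With the replicate number as a block, 4 E2f-match promoters passed, and the call of U1 was lost. Pairs with the same number correlated at 0.067, -0.140 and 0.077 in their deviations, which gave no sign that the numbers pair the libraries. With 3 libraries per stage, these values cannot exclude a pairing. Not every library correlated best with its own number. The settings that need a genome, TTTNNCGC anywhere in the region and classes of CpG share, were not run.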
